A study of Homo sapiens with 52 samples.

Results

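The genes described here move calcium between the cytosol, the endoplasmic reticulum (ER), the mitochondria and the outside of the cell, or answer to the calcium-dependent phosphatase calcineurin. They were chosen by symbol, and they are 10 of the 59408 genes listed in each table: ATP2A2, ATP2B1, ATP2B4, ITPR1, ITPR2, ITPR3, STIM1, ORAI1, MCU and RCAN1. Of these, 9 had a mean level of at least 10 over the 26 groups and were tested, among 15479 genes tested in all. ORAI1 did not pass that filter and is described by its reads alone.

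The RNA came from WI-38 cells, a line of normal human fibroblasts from embryonic lung that can divide only a limited number of times. Young cells were left untreated (Untreated) or were exposed for 24 h to 0.009% SDS, a detergent used here to damage the cell surface membrane, to 75 mM KCl, which depolarises the membrane, or to 250 nM doxorubicin (DXR), which damages DNA. The agent was then washed away. The senescent states that follow are called PMD-Sen after SDS, Ca2+-Sen after KCl and DDR-Sen after DXR. Sampling began on day 0, the end of the exposure, and was repeated daily to day 4 and then on days 6, 8 and 16. Replicatively senescent cells (RS) had been passaged until they stopped dividing, so RS differs from the other groups in culture age as well. The population doubling level, a count of culture age, was 32 to 46 for the untreated cells and 52 for RS. It was not listed for the treated groups. Each of the 26 groups held 2 libraries of independent samples from this single cell line. No group carried a transgene or a deletion, and no group had been treated with a calcium chelator or a calcineurin inhibitor.

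As background, cytosolic calcium is kept far below the level outside the cell. SERCA pumps such as ATP2A2 return it to the ER, and PMCA pumps such as ATP2B1 and ATP2B4 push it out across the plasma membrane. Inositol trisphosphate receptors (ITPR1, ITPR2, ITPR3) release it from the ER. STIM1 senses an emptied ER and opens the plasma membrane channel ORAI1, which is called store-operated entry, and MCU is the pore through which mitochondria take calcium up. A lasting rise in cytosolic calcium activates calcineurin through calmodulin. Calcineurin then dephosphorylates NFAT transcription factors, which enter the nucleus, and RCAN1, a protein that binds and inhibits calcineurin, is a well known NFAT target, so its RNA is widely used as a sign of calcineurin activity. The transcript that NFAT induces starts inside the gene, at an exon downstream of the first start.

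RCAN1 lies on chromosome 21, from base 34513142 to base 34615142 on the minus strand (GRCh38, GENCODE v29). It has 6 start-site windows in RefSeq (GRCh38.p14). An intragenic and an upstream window are printed below because RCAN1 gave the largest rise among the members and its starts differ in sequence. Each window runs from 250 bases before the start to 50 bases after it, 5′ to 3′ on the gene's strand, and capitals mark GGAAA, the core that NFAT factors recognise, or TTTCC, the same letters on the other strand.

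RCAN1 intragenic start, chr21:34526773-34527072, minus strand: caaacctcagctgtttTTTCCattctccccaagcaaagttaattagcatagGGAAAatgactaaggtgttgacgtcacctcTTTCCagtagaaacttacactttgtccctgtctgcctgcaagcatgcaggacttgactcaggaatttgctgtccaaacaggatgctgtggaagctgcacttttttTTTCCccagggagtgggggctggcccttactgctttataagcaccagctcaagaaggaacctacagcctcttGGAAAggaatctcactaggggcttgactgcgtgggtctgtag
RCAN1 upstream start, chr21:34615064-34615363, minus strand: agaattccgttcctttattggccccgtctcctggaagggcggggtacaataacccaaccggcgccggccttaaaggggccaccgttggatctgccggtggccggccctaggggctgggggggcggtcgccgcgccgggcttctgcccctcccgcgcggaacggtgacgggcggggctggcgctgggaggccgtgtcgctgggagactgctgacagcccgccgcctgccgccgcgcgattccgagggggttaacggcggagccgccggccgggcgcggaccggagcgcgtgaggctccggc

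The intragenic window held 5 matches of GGAAA counted over both strands, the most of the 6 RCAN1 windows, and the upstream window held 0. The unprinted windows that begin at bases 34524588 and 34525418 held 1 each, and those at 34613794 and 34614397 held 0. Among 35114 windows of the same length over all genes, 0.74% held at least 5 matches and 61.2% held at least 1. These are shares of single windows, while the intragenic window is the highest of 6. How often the highest of 6 windows holds as many was not computed. The intragenic window also held 1 TGACGTCA, the letters of a cAMP response element, which 1.85% of all windows held. The motifs do not overlap each other. In the 13 windows of the other 7 members with an entry (ATP2A2, ATP2B1, ATP2B4, ITPR1, ITPR3, MCU and STIM1), GGAAA occurred 0 to 2 times and TGACGTCA was not found. A match of letters is a description and shows no binding. The tables count reads per gene, so reads from the different starts cannot be told apart, and no value below belongs to 1 start.

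The values are normalised read counts, that is, reads of a gene scaled for the depth of its library, and the groups were put on 1 common scale. Depth was 18.8 M and 15.4 M reads for the untreated libraries, the smallest of all, and 19.1 M to 58.0 M (median 29.5 M) for the other 50. It is an estimate of the reads assigned to genes, from the scaling of each library and the summed level of its group. It is not a count of sequenced reads. The larger and the smaller library of a group are named by their depth, since the tables do not tie their values to replicate numbers. Fold changes are against the untreated cells, on the log2 scale with their standard error (SE), and a change was called at an adjusted p under 0.05 (Wald test with Benjamini-Hochberg adjustment over the 15479 genes). All 25 comparisons share the same untreated libraries. The untreated group carries no sampling day, and no untreated cells matched by day were sampled. A late change after an exposure and a change with time in culture therefore cannot be told apart. A pair of checks recurs below: limma fitted to the reads of the 52 libraries, and the same fit with 1 library of the comparison left out, which gives 4 refits for each comparison. The fibroblast markers had a summed level of 406600 to 967700 over the groups, with 12 of 12 genes tested. White blood cell markers had 15.7 to 259 with 1 of 5 tested, muscle markers 94.2 to 246 with 2 of 6, neuron markers 254 to 679 with 4 of 5, endothelial markers 1272 to 6900 with 3 of 5 and epithelial markers 2524 to 5468 with 3 of 6, and no listed marker was at 0 in every group. The part of these markers in the results was not tested. In bulk RNA, fewer cells of a type and less RNA per cell cannot be told apart.

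Compared per 1000 bases of annotated exon, ATP2B4 (2431 normalised counts) and ATP2A2 (1291) had the highest levels in untreated cells. RCAN1 (560), ATP2B1 (357), MCU (326) and STIM1 (275) followed. The inositol trisphosphate receptors were lowest, with ITPR3 at 130, ITPR2 at 30.3 and ITPR1 at 7.33. The order depends in part on the length used. Per 1000 bases of the longest coding transcript, ATP2A2 (3985) stood above ATP2B4 (2636), MCU (458) and STIM1 (451) differed little, and ITPR1, at 23.3, was again below ITPR2, at 33.9. Over all groups ITPR3 had the widest range, from 322 normalised counts on DXR day 16 to 3783 on SDS day 1, an 11.7-fold range, and ATP2A2 had the narrowest, 1.41-fold.

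**Figure D1:**
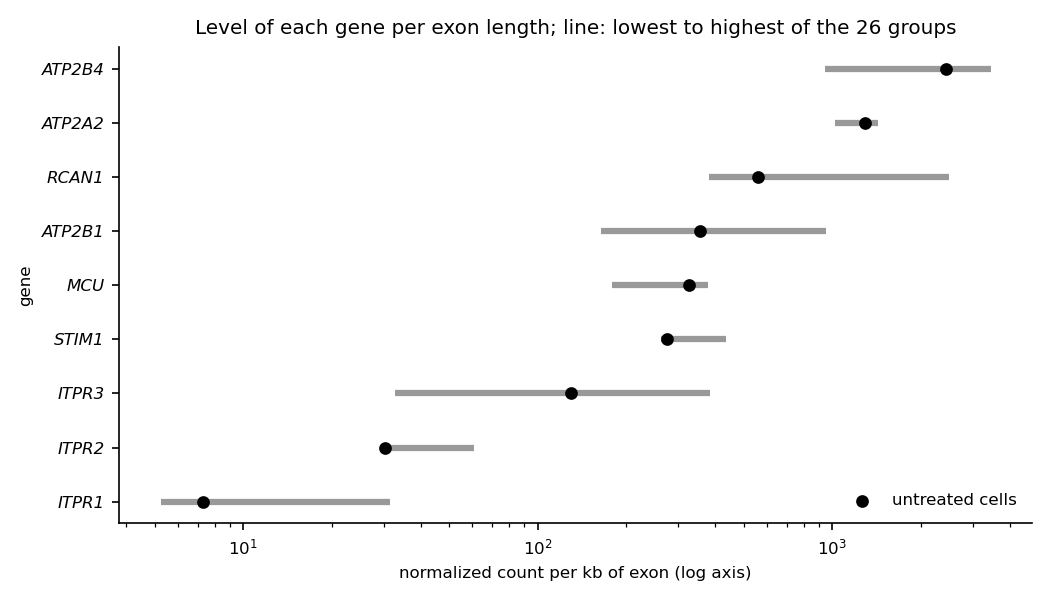
Level of each tested member per 1000 bases of exon (horizontal axis, log scale, normalised counts per kb), in untreated cells and over the 26 groups. ATP2B4 and ATP2A2 lie highest, and ITPR1 lies lowest, at 7.33 in untreated cells.

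RCAN1 is described first, as the member known as an NFAT target. Whether calcineurin had a part in its changes here was not tested. At the end of the exposure to SDS, RCAN1 RNA was more than 4 times as high as in untreated cells, and this rise was gone 1 day later. The untreated libraries had 3711 and 4121 normalised counts, and the SDS day 0 libraries had 17647 and 17287. Both SDS libraries lay far above both untreated ones. The fold change was 4.46 (95% interval 3.91 to 5.1; log2 2.16, SE 0.10, adjusted p = 8.99e-105), and the call was kept in 4 of 4 refits with a library left out.

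KCl gave no such rise on day 0. Its libraries had 3784 and 4958 normalised counts, overlapping the untreated ones (log2 0.16, SE 0.13, adjusted p = 0.312). After DXR the libraries had 2853 and 2858, both below both untreated libraries. That fall had a log2 fold change of -0.46 (SE 0.11, adjusted p = 0.000336), but 0 of 4 refits with a library left out kept the call. RCAN1 on SDS day 0 was thus 4.0-fold the KCl level (difference 2.00 on the log2 scale, SE 0.16, adjusted p = 4.47e-34) and 6.12-fold the DXR level (2.61, SE 0.15, adjusted p = 8.45e-67). KCl exceeded DXR by 0.61 (SE 0.17, adjusted p = 0.00124). Each of these 3 differences was called by limma as well.

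On day 1 RCAN1 in SDS-treated cells was below the untreated level, with 2454 and 2882 normalised counts (log2 -0.56, SE 0.11, adjusted p = 1.19e-05, kept in 1 of 4 refits). From day 0 to day 1 it dropped by 2.71 on the log2 scale (SE 0.15, adjusted p = 4.1e-71), a 6.56-fold change. From day 3 to day 8 it was modestly above the untreated level, with log2 fold changes between 0.31 and 0.48 that passed the Wald test and did not pass in limma (adjusted p = 0.251 on day 3, 0.141 on day 4, 0.103 on day 6 and 0.0549 on day 8). On day 16 the libraries had 4455 and 4271 (log2 0.16, adjusted p = 0.511).

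After KCl RCAN1 rose on day 3 (log2 0.48), day 4 (0.59) and day 16 (0.40), with 5191 and 5164 normalised counts on day 16. Of these 3 calls limma kept only that of day 4, and none was kept in any of its 4 refits. Between them the libraries overlapped the untreated ones on day 6 (3685 and 5011, log2 0.15, adjusted p = 0.736) and on day 8 (3892 and 3634, log2 -0.06, adjusted p = 0.72). After DXR it rose on day 8 (log2 0.63, adjusted p = 1.23e-07) and day 16 (0.72, adjusted p = 5.5e-05), where the libraries had 5258 and 7675. These calls were kept in 2 and 3 of 4 refits. The changes on DXR day 1 (log2 -0.44) and day 4 (0.25) passed the Wald test and were not kept by limma. RS libraries had 6268 and 11224 normalised counts, the widest gap between the libraries of a group for RCAN1. Both exceeded both untreated libraries, and the fold was 2.23 (95% interval 1.51 to 3.31, adjusted p = 0.000668, kept in 4 of 4 refits).

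**Figure D2:**
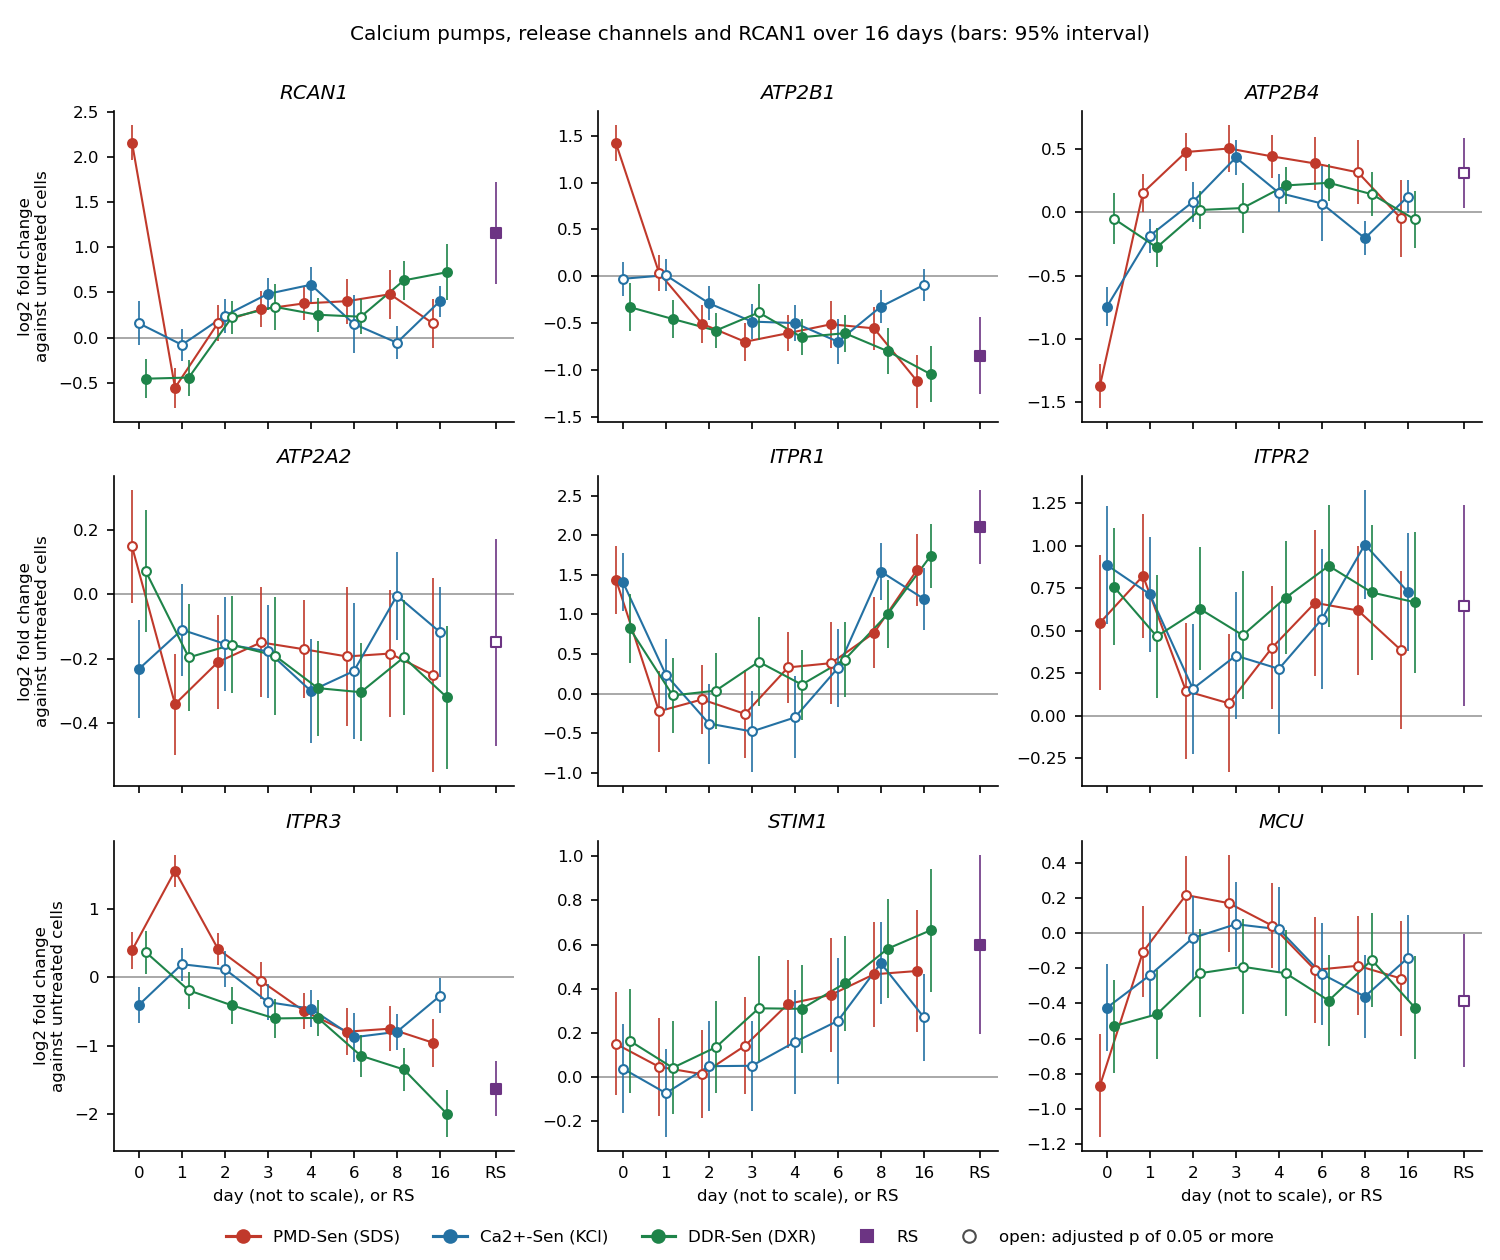
Log2 fold change against untreated cells (vertical axis, each panel with its own scale) of the 9 tested members on each day, with days equally spaced, and in RS. Lines join the days of an inducer, bars are 95% intervals, and open symbols did not pass the test. RCAN1 and ATP2B1 have their highest points on SDS day 0, and ITPR3 on SDS day 1.

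Of the plasma membrane pumps, ATP2B1 moved together with RCAN1 on SDS day 0 and ATP2B4 moved the opposite way. ATP2B1 encodes PMCA1, the pump most tissues use to keep resting calcium low. Its untreated libraries had 3374 and 3395 normalised counts and its SDS day 0 libraries 9264 and 8834, a 2.67-fold rise (95% interval 2.34 to 3.06, adjusted p = 3.39e-45, kept in 4 of 4 refits). On day 1 the libraries had 3322 and 3633, which overlap the untreated ones (log2 0.04, adjusted p = 0.895).

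From day 2 ATP2B1 was lower after SDS on every day sampled. The fall had reached a log2 fold change of -1.12 on day 16 (SE 0.14, adjusted p = 8.08e-13), with 1487 and 1629 normalised counts. After DXR it fell on 7 of 8 days, day 3 being the exception (-0.39, adjusted p = 0.0851), and reached -1.05 on day 16 (1393 and 1884, adjusted p = 1.39e-10). In RS the libraries had 2166 and 1592 (-0.85, SE 0.21, adjusted p = 0.000536). The calls of SDS day 16, DXR day 16 and RS were each kept in 4 of 4 refits, and those of DXR days 0 and 1 in 1.

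KCl differed from these at the ends of the series. ATP2B1 was near the untreated level on day 0 (3216 and 3428, log2 -0.03, adjusted p = 0.836), on day 1 and on day 16 (3146 and 3201, log2 -0.09, adjusted p = 0.683). It fell on days 2, 3, 4, 6 and 8, by 0.29 to 0.70 on the log2 scale. Of these falls, limma did not keep day 2, day 6 was kept in 4 of 4 refits, and the others in none. On day 16 the SDS level was below the KCl level (difference -1.03, SE 0.17, adjusted p = 1.64e-06), and KCl was above DXR (0.95, SE 0.18, adjusted p = 4.54e-06) and above RS (0.76, SE 0.23, adjusted p = 0.0261).

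ATP2B4 encodes PMCA4, another calcium pump of the plasma membrane. It had 24075 and 23195 normalised counts in untreated cells, and 9181 and 9142 on SDS day 0, a fall of 1.37 on the log2 scale (SE 0.09, adjusted p = 1.68e-51). KCl also lowered it on day 0 (13558 and 14633, log2 -0.75, SE 0.08, adjusted p = 5.37e-20). Both calls were kept in 4 of 4 refits. DXR libraries overlapped the untreated ones (24222 and 21423, log2 -0.05, adjusted p = 0.797), and the differences from DXR passed the test for SDS (-1.32, adjusted p = 3.9e-20) and for KCl (-0.70, adjusted p = 9.89e-07). SDS was also below KCl (-0.62, adjusted p = 1.36e-06).

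After the SDS wash ATP2B4 went from below to above the untreated level. It gained 1.52 from day 0 to day 1 (SE 0.12, adjusted p = 4.47e-36) and was higher on days 2, 3, 4 and 6 (log2 0.38 to 0.50). On day 3 the libraries had 30950 and 36030. These 4 calls were kept in 2 to 3 of 4 refits. After KCl it rose on day 3 only (31228 and 32537, log2 0.43, adjusted p = 1e-07, kept in 1 of 4 refits) and fell on day 8 (log2 -0.21), a call limma did not keep. The changes after DXR on days 1, 4 and 6 were of 0.28 or less in size, and limma kept none of them. In RS the log2 fold change was 0.31 (adjusted p = 0.104 by the Wald test), and limma called it (adjusted p = 0.0271). With 1 library left out, this change ran from 0.24 to 0.37.

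ATP2A2, the SERCA2 pump of the ER, had the narrowest range. The untreated libraries had 18260 and 17230 normalised counts. On SDS day 0 it had 19437 and 19933 (log2 0.15, adjusted p = 0.191), and on SDS day 1 it fell to 13616 and 14386 (log2 -0.34, SE 0.08, adjusted p = 0.000254, kept in 4 of 4 refits). It also fell on SDS day 2, KCl days 0 and 4, and DXR days 4, 6 and 16, by 0.21 to 0.34 over all these calls including SDS day 1. Of these, limma did not keep SDS day 2, and the KCl and DXR calls were kept in 2 to 3 of 4 refits. In 21 of the 24 treated or RS groups with recovered reads, both libraries were below both untreated ones, although most of these comparisons did not pass the test. Each of them uses the same pair of untreated libraries, so the 21 are not independent. The share of all genes with such a count was not computed, so the count is a description only. The reads of DXR day 0 were not recovered for this gene (log2 0.07, adjusted p = 0.671). On day 0 it was higher after SDS than after KCl (0.38, SE 0.12, adjusted p = 0.0048) and lower after KCl than after DXR (-0.30, SE 0.12, adjusted p = 0.0417). Under scaling by the summed level the second difference was -0.25 (adjusted p = 0.111).

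**Figure D3:**
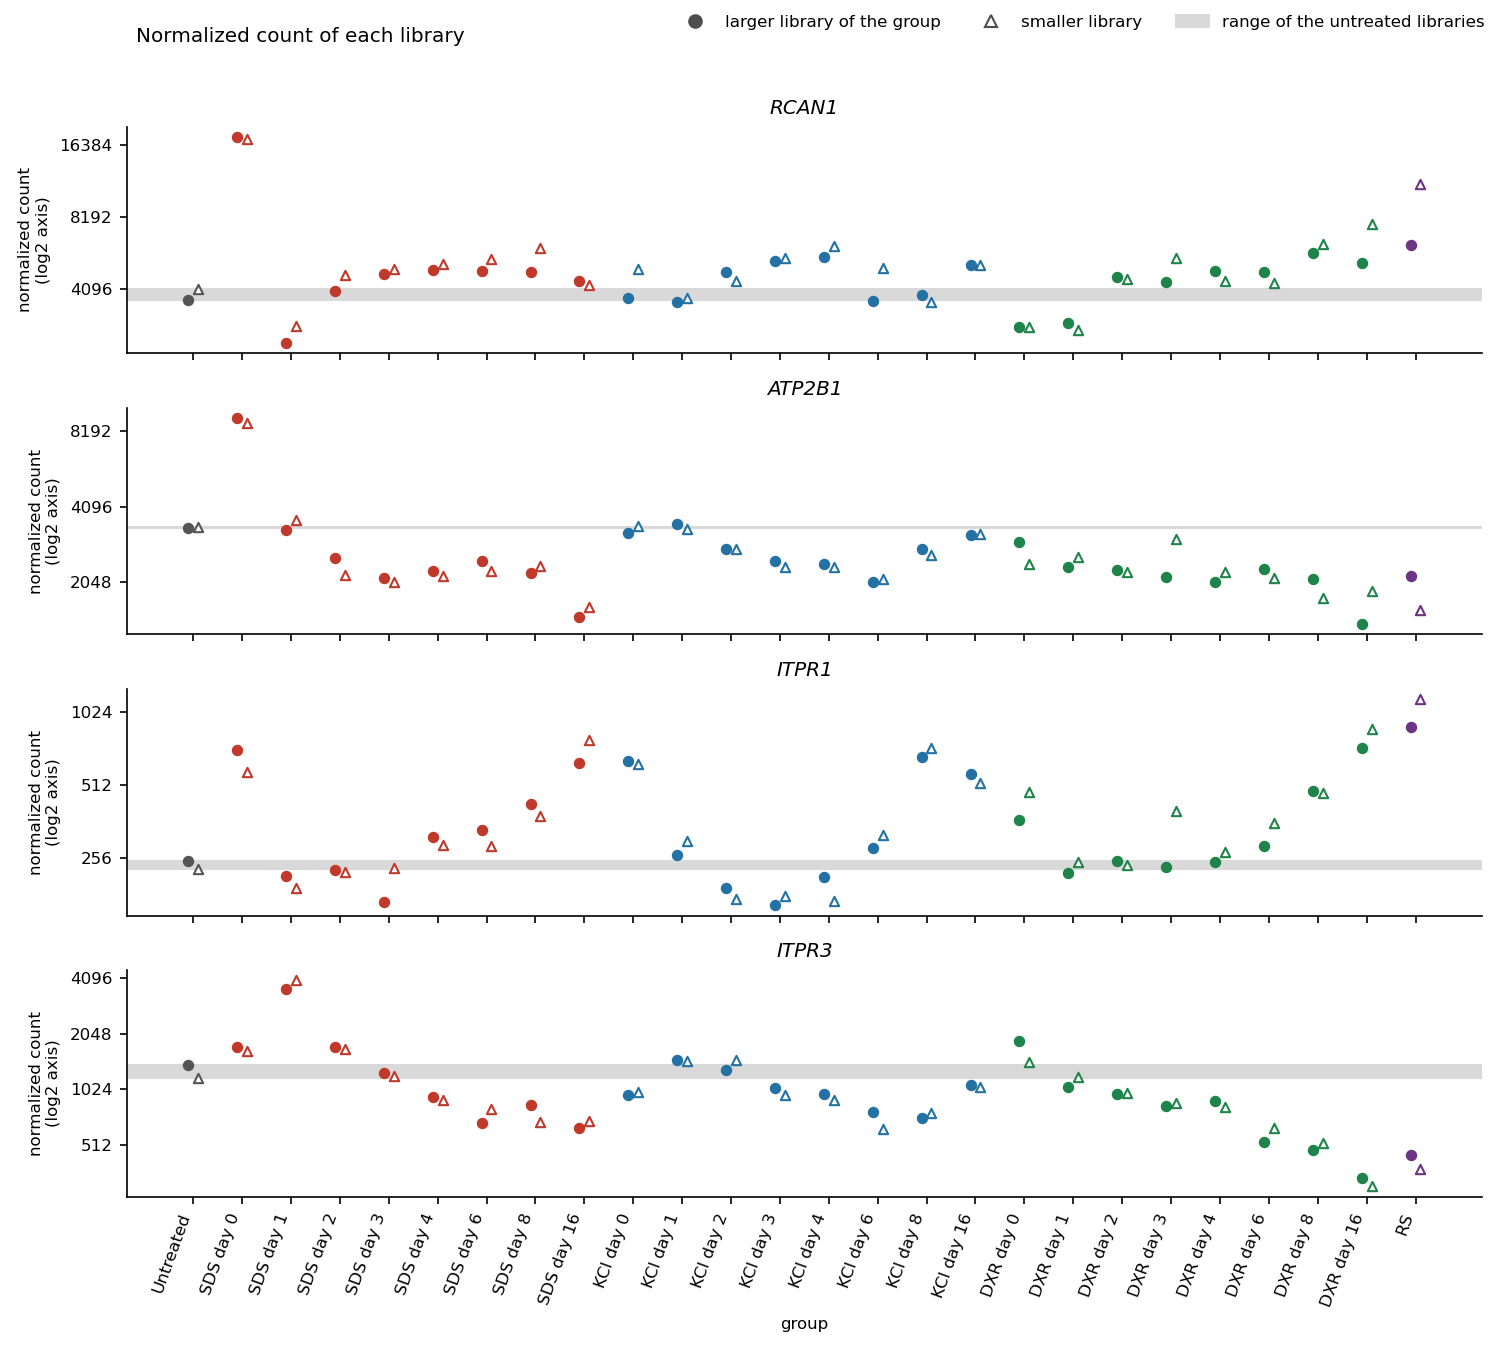
Normalised counts of the larger (filled circle) and smaller (open triangle) library in each of the 26 groups (vertical axis, log2 scale) for RCAN1, ATP2B1, ITPR1 and ITPR3. The grey band spans the 2 untreated libraries, and both RCAN1 libraries of SDS day 0 lie far above that band.

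The 3 release channels did not move alike. ITPR1 rose at the end of every exposure, returned toward the untreated level and rose again late. Its untreated libraries had 247 and 229 normalised counts. On day 0 SDS had 711 and 578 (2.71-fold, log2 1.44, SE 0.22, adjusted p = 5.91e-10), KCl had 643 and 622 (2.66-fold, adjusted p = 3.37e-13) and DXR had 366 and 476 (1.77-fold, adjusted p = 0.00159). All 6 libraries lay above both untreated ones. Each call was kept in 4 of 4 refits. The differences from DXR were 0.62 for SDS (95% interval 0.001 to 1.23, adjusted p = 0.14) and 0.59 for KCl (0.017 to 1.16, adjusted p = 0.106) with the summed error, and limma called both (adjusted p = 0.00106 and 0.000545). SDS and KCl differed by 0.03 (95% interval -0.53 to 0.59).

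On day 1 ITPR1 had 215 and 191 after SDS, a decrease of 1.66 from day 0 (SE 0.34, adjusted p = 1.2e-05), and 261 and 300 after KCl (-1.17 from day 0, SE 0.30, adjusted p = 0.00041). No comparison with untreated cells passed from day 1 to day 6 in any of the 3 arms. From day 8 it was higher in all of them. After SDS it rose on day 8 (log2 0.77, adjusted p = 0.0108, kept in 1 of 4 refits) and had 627 and 780 on day 16 (2.96-fold, adjusted p = 6.15e-10). After KCl it had 663 and 724 on day 8 (2.91-fold, adjusted p = 8.34e-16) and 569 and 521 on day 16 (2.29-fold). After DXR it rose 2.01-fold on day 8 and had 726 and 869 on day 16 (3.35-fold, adjusted p = 1.37e-15). RS had 889 and 1156, the highest level of any group (4.3-fold, 95% interval 3.1 to 5.95, adjusted p = 1.39e-16). All 3 day 16 calls and the RS call were kept in 4 of 4 refits. RS was not called different from any day 16 group with the summed error, while limma placed SDS day 16 (-0.53, adjusted p = 0.00465) and KCl day 16 (-0.89, adjusted p = 1.84e-05) below RS.

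ITPR2 was lowest in untreated cells, at 360 and 414 normalised counts. Both libraries were above both untreated ones in 23 of 25 groups and overlapped in the other 2, SDS days 2 and 3. Since each of these comparisons uses the same pair of untreated libraries, the 23 are not independent. The share of all genes with such a count was not computed. The rise passed the test on day 0 of SDS (1.46-fold, adjusted p = 0.0204), KCl (770 and 654, 1.85-fold, adjusted p = 2.35e-06) and DXR (1.69-fold, adjusted p = 0.000132), and in 14 of 25 comparisons in all. It was largest on KCl day 8, at 760 and 792 (2.01-fold, adjusted p = 9.36e-09). RS had 463 and 749 (log2 0.65, SE 0.30, adjusted p = 0.112 by the Wald test), and limma called it (adjusted p = 0.0141). With 1 library left out, the RS change ran from 0.27 to 0.96. Of the 14 calls, those of KCl days 0 and 8 and DXR day 6 were kept in 4 of 4 refits, and those of SDS day 0, KCl days 1 and 16 and DXR day 2 in none.

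ITPR3 rose to its highest level on SDS day 1 and then fell below the untreated level. Untreated libraries had 1386 and 1181 normalised counts, SDS day 0 had 1724 and 1652 (log2 0.39, adjusted p = 0.0149), and SDS day 1 had 3578 and 3993 (2.94-fold, log2 1.56, SE 0.12, adjusted p = 4.16e-37, kept in 4 of 4 refits). On day 1 this was higher than after KCl (1474 and 1460, difference 1.37, SE 0.17, adjusted p = 4.65e-13) and than after DXR (1056 and 1198, difference 1.75, SE 0.18, adjusted p = 8.89e-20). By SDS day 16 it had 634 and 690 (log2 -0.96, adjusted p = 2.48e-06), a decrease of 2.51 from day 1 (SE 0.21, adjusted p = 1.13e-28).

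After DXR ITPR3 was lower from day 2 on, and on day 16 it had 339 and 306, a 3.98-fold fall (log2 -1.99, SE 0.17, adjusted p = 4.06e-28). RS had 450 and 381 (3.09-fold lower, adjusted p = 1.28e-13). KCl lowered it on day 0 (957 and 987, log2 -0.40, adjusted p = 0.00587, kept in 3 of 4 refits) and on days 4, 6 and 8, while on day 16 it had 1079 and 1049 (log2 -0.27, adjusted p = 0.201). The KCl day 16 level therefore exceeded that of DXR (difference 1.72, SE 0.22, adjusted p = 6.92e-13) and of RS (1.35, SE 0.24, adjusted p = 2.98e-06), and SDS exceeded DXR (1.04, SE 0.25, adjusted p = 0.0256). The SDS day 16, DXR day 16 and RS calls were kept in 4 of 4 refits.

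STIM1, the ER calcium sensor of store-operated entry, was higher late. Its untreated libraries had 1949 and 1976 normalised counts. None of the 12 comparisons of days 0 to 3 passed. It rose from day 4 on after SDS, with 2719 and 2757 on day 16 (1.4-fold, adjusted p = 0.00542), and from day 4 on after DXR, with 2763 and 3463 on day 16 (1.59-fold, adjusted p = 2.75e-05). After KCl it rose on day 8 only (2763 and 2850, 1.43-fold, adjusted p = 4.85e-07). RS had 2538 and 3412 (1.52-fold, adjusted p = 0.0213). These 4 calls were kept in 4 of 4 refits, those of day 4 in none and that of SDS day 6 in 1.

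ORAI1, the channel that STIM1 opens, was almost without reads. The untreated libraries had 0 reads of it, and 10 of 25 tables listed it above 0, with 1 to 3 reads in a single library of the group and 13 reads in all. In the other 15 tables it was listed at 0. No fold change is given. The gene lies on chromosome 12 from base 121626550 to base 121642677, and GENCODE v29 tags it as affected by an error in the reference genome, which may bear on how reads were assigned and was not tested.

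MCU, the mitochondrial pore, fell at the end of all 3 exposures. The untreated libraries had 1379 and 1576 normalised counts. On day 0 it had 777 and 842 after SDS (1.82-fold lower, log2 -0.87, SE 0.15, adjusted p = 5.78e-08), 1052 and 1150 after KCl (1.34-fold lower, adjusted p = 0.00227) and 1021 and 1024 after DXR (1.44-fold lower, adjusted p = 0.000612). All 6 libraries lay below both untreated ones, and each call was kept in 4 of 4 refits. SDS was below KCl by 0.44 (95% interval -0.83 to -0.06, adjusted p = 0.0623) and below DXR by 0.34 (-0.73 to 0.06, adjusted p = 0.229) with the summed error, and limma called both differences (adjusted p = 0.000288 and 0.00395). After SDS it recovered by 0.76 from day 0 to day 1 (SE 0.20, adjusted p = 0.000937), and no later SDS day passed against untreated cells. Later falls were called on KCl day 8 (log2 -0.36) and on DXR days 1, 6 and 16 (-0.38 to -0.46). In RS it had 1030 and 1234 (log2 -0.38, adjusted p = 0.151 by the Wald test), where limma called it lower in 4 of 4 refits.

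Counts of members called are read against the share of all 15479 tested genes called in the same comparison. On SDS day 0, 7 of 9 members were called (5 higher, 2 lower) where 38.3% of all genes were. The SDS counts then were 4 on day 1 (18.8% of all genes), 4 on day 2 (15.1%), 3 on day 3 (10.9%), 5 on day 4 (14.9%), 6 on day 6 (12.1%), 6 on day 8 (11.2%) and 4 on day 16 (20.3%). After KCl they were 6 on day 0 (2 higher, 4 lower, beside 48.5% of all genes), 1 on day 1 (11.9%), 1 on day 2 (4.12%), 3 on day 3 (9.95%), 4 on day 4 (11.5%), 2 on day 6 (9.68%), 7 on day 8 (31.9%) and 3 on day 16 (11.3%). After DXR they were 5 on day 0 (26.7%), 4 on day 1 (18.6%), 3 on day 2 (12.1%), 1 on day 3 (11.0%), 7 on day 4 (17.6%), 7 on day 6 (23.4%), 6 on day 8 (21.0%) and 8 on day 16 (4 higher, 4 lower, beside 28.7%). RS had 5 of 9 (3 higher, 2 lower) beside 22.3%. The counts of 9 genes are given as a description, and a count of 1, as on KCl day 1 or DXR day 3, lies near the background. The shares were not matched for level. The tested members had means of 396.5 to 25128 normalised counts, and the tested genes include those with a mean of 10. The median size of the log2 change was smaller in the members than over all tested genes on SDS days 1 to 3 (0.22 and 0.26 on day 1) and KCl days 0 to 2. It was larger in the members in the other comparisons.

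For a difference between treated groups, the errors of both comparisons were summed, which counts the untreated libraries again and gives too few calls. SDS and KCl differed in 5 of 9 members on day 0 beside 36.9% of all genes, SDS and DXR in 3 (27.4%), and KCl and DXR in 4 (35.5%). On day 16 SDS and KCl differed in 1 member beside 2.60% of all genes, SDS and DXR in 1 (0.187%), and KCl and DXR in 2 (6.06%). On day 1 SDS and KCl differed in 3 members (4.13% of all genes), SDS and DXR in 3 (11.7%), and KCl and DXR in 1 (7.32%). ITPR3 was the largest of these differences. On day 2 the counts were 1 for SDS and KCl (2.26%), 2 for SDS and DXR (6.91%) and 0 for KCl and DXR (3.08%). On day 3 they were 0 (0.142%), 1 (1.74%) and 0 (1.47%) in the same order, and ATP2B4, higher after SDS than after DXR, was the member called. On day 4 no member was called in any pair (0.142%, 0.724% and 1.10% of all genes), nor on day 6 (0.0129%, 0.594% and 0.633%). On day 8, 2 members differed between SDS and KCl (3.11%), 0 between SDS and DXR (0.782%) and 3 between KCl and DXR (4.65%). RCAN1 was lower after KCl on that day, with a difference of 0.54 for SDS minus KCl (adjusted p = 0.0429) and of -0.69 for KCl minus DXR (adjusted p = 0.000121). In the pairs with a count of 0, between 0 and 2 members had an unadjusted p under 0.05, and limma called 0 or 1. Over all genes limma called between 0 of 15286 (SDS and KCl, day 4) and 1446 of 15284 (KCl and DXR, day 2) in those pairs.

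Between days, 7 of 9 members differed between SDS days 0 and 1 (27.7% of all genes), 4 between SDS days 1 and 16 (18.7%), 3 between KCl days 0 and 1 (34.9%), 3 between KCl days 1 and 16 (8.94%), 0 between DXR days 0 and 1 (3.35%) and 5 between DXR days 1 and 16 (8.42%). For DXR days 0 and 1, 3 members had an unadjusted p under 0.05, and limma called 2 of the 8 it could test, ITPR1 and ITPR3. Over all genes limma called 3840 of 15172 between these days, so its count of members lies near that background. Of the members on day 16, none was called different from RS after SDS (0.659% of all genes) or after DXR (0.142%), and 2, ATP2B1 and ITPR3, after KCl (4.06%). For SDS against RS, 2 members had an unadjusted p under 0.05. There limma called 4, among them RCAN1 (-0.94, adjusted p = 0.000233), beside 3638 of 15283 genes. For DXR against RS, 1 member had an unadjusted p under 0.05 and limma called 1, beside 922 of 15282 genes. RCAN1 on KCl day 16 was also below RS in limma alone (-0.70, adjusted p = 0.0026).

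Other genes of calcium handling were followed in 11 lists of 130 genes, of which 103 were tested. The counts of each list are read against the share of all tested genes called, which was 38.3% on SDS day 0, 48.5% on KCl day 0, 26.7% on DXR day 0 and 22.3% in RS. The median log2 fold change over all tested genes lay within 0.03 of 0 in each comparison quoted here. On SDS day 0 the list of calcium binding proteins of the ER lumen had 7 of 10 genes higher, 0 lower and a median of 0.62. HSPA5, the chaperone BiP, had a mean of 35687 normalised counts in untreated cells and 258130 on SDS day 0 (7.23-fold, adjusted p = 3.73e-140), and RCN3, a reticulocalbin, rose 2.39-fold. On KCl day 0 the same list had 0 higher and 6 of 10 lower, with a median of -0.36, and HSPA5 (2.11-fold) and HSP90B1, the chaperone GRP94 (1.86-fold), were lower. After DXR on day 0 it had 1 higher and 2 lower.

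The calcineurin and NFAT lists on SDS day 0 are read beside the 38.3% of all genes called, 2936 higher and 2993 lower. Of 9 tested inhibitors and scaffolds 1 was higher and 5 lower (median -0.59), among them RCAN3, a paralogue of RCAN1 (2.7-fold lower, adjusted p = 2.55e-08), and CABIN1, another calcineurin inhibitor (1.84-fold lower). Of 6 calcineurin subunits and calmodulin genes 3 were lower and 0 higher, with CALM3, a calmodulin gene, 2.55-fold lower. In the list of NFAT factors and their kinases, 1 of 11 was higher and 1 lower. That list also holds NFAT5, and HOMER2 and HOMER3, which are neither NFAT factors nor kinases. On KCl day 0, 5 of these 11 were higher and 1 lower, and NFATC1, an NFAT factor that is itself a known NFAT target, rose from 252 to 591 normalised counts (2.34-fold, adjusted p = 3.62e-10). On DXR day 0, NFATC3 alone was higher in that list (1.53-fold) and none was lower. RCAN2, the other paralogue of RCAN1, was higher on SDS day 16 (2.13-fold), on DXR day 16 (2.66-fold) and in RS (3.58-fold, adjusted p = 1.02e-19).

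Among ER release genes, 5 of 16 were higher and 7 lower on SDS day 0, beside 38.3% of all genes called. IRAG1, which restrains inositol trisphosphate receptors under cGMP signalling, fell 22.2-fold, from 3842 to 173 normalised counts (adjusted p = 3.69e-168). On day 16 it was higher after SDS (2.01-fold), KCl (1.41-fold) and DXR (1.74-fold) and in RS (2.11-fold). On KCl day 0 this list had 2 higher and 9 lower, led by ERLIN2 (3.18-fold lower) and ERLIN1 (3.13-fold lower), which target activated inositol trisphosphate receptors for degradation. On DXR day 0 it had 4 higher and 4 lower, with PLCD1, a phospholipase C, 1.94-fold higher.

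Of 13 store-operated entry genes, SDS day 0 raised 3 and lowered 6, KCl day 0 raised 4 and lowered 3, and DXR day 0 raised 3 and lowered 2, beside 38.3%, 48.5% and 26.7% of all genes. TRPC6, a calcium-permeable channel of the plasma membrane, fell in all 3 (2.84-, 3.23- and 3.22-fold). ORAI3, a paralogue of ORAI1, rose 3.54-fold on DXR day 0 (adjusted p = 7.14e-23) and was higher in RS (1.75-fold). SARAF, which limits store-operated entry, was higher on day 16 after SDS (1.6-fold), KCl (1.28-fold) and DXR (2.24-fold) and in RS (2.31-fold).

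In the list of other plasma membrane calcium channels, with 20 genes tested, 4 were higher and 7 lower on SDS day 0. The counts were 5 and 5 on KCl day 0, and 1 and 3 on DXR day 0. That list also holds auxiliary subunits and genes that are not calcium channels themselves, such as TRPM4 and PKD1. The KCl count of 10 of 20 lies near the 48.5% of all genes, and the DXR count of 4 of 20 below the 26.7%. On day 16, where 20.3% (SDS), 11.3% (KCl) and 28.7% (DXR) of all genes were called, the counts were 6 higher and 0 lower after SDS, 6 and 0 after KCl and 5 and 0 after DXR, and in RS 5 higher and 1 lower (median 0.39). TRPV2, a cation channel, was higher on KCl day 16 (2.46-fold) and in RS (2.87-fold), and PIEZO2, a mechanically gated channel, on SDS day 16 (2.13-fold) and DXR day 16 (1.7-fold).

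Of 10 mitochondrial calcium genes, 2 were higher and 4 lower on SDS day 0 and also on KCl day 0, and 0 and 2 on DXR day 0. The DXR count lies below the 26.7% of all genes called on that day, and the KCl count of 6 of 10 stands beside 48.5%. MCUB, a subunit that dampens the MCU pore, was lower on KCl day 0 (2.64-fold), DXR day 0 (2.6-fold), DXR day 16 (2.27-fold) and in RS (2.67-fold). The sodium-calcium exchanger gene SLC8A1 was lower on day 0 after SDS (1.83-fold), KCl (2.53-fold) and DXR (2.66-fold). ATP2A3, the SERCA3 pump, rose from 109 to 425 normalised counts on SDS day 0 (3.89-fold), where ATP2A2 had not passed the test. Of the 4 tested genes of the list of plasma membrane and Golgi pumps, which also holds subunits of the PMCA pumps, NPTN, one such subunit, was lower on SDS day 0 (1.33-fold) and 0 were higher. All lists other than the members were tested as part of the whole table, and no test of a list as a whole was made.

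**Figure D4:**
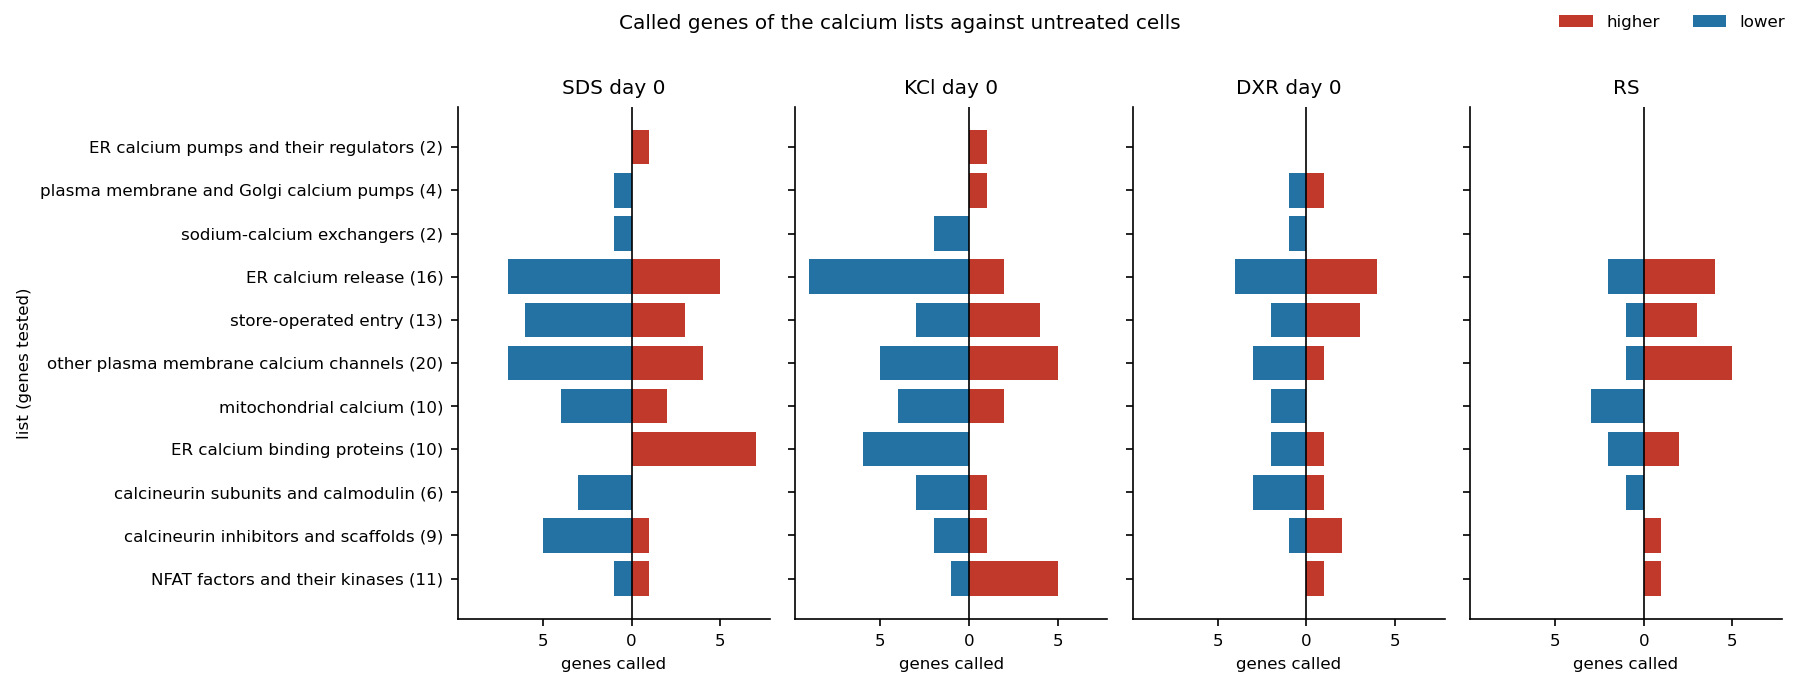
Genes called higher (right, red) and lower (left, blue) in each of the 11 calcium lists (vertical axis, with the genes tested in brackets; horizontal axis, number of genes called) on day 0 of SDS, KCl and DXR and in RS. ER calcium binding proteins point right on SDS day 0 (7 of 10 higher) and left on KCl day 0 (6 of 10 lower).

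For each member the genes with the most similar levels were found by Pearson's r of the log2 levels over the 26 groups, among genes with a mean of at least 100, as a description with no test. Every group shares the same scaling and many groups share an inducer. For RCAN1 they were TMEM167B (r = 0.89), SLC37A3 (0.88) and RAB6A (0.88). For ATP2B1 they were NIBAN1 (0.90), GRPEL2 (0.90) and PHF20L1 (0.89), for ATP2B4 PPP2R1A (0.92), IFFO1 (0.91) and MVP (0.90), and for ATP2A2 ERP44, COL4A2 and UGGT1 (each 0.78). ITPR1 was nearest to KCNE4 (0.92), PCBP3 (0.90) and SLC12A8 (0.88), ITPR2 to LYST (0.83), BMP2 (0.76) and KLF3 (0.72), and ITPR3 to FABP5 (0.91), SLC38A5 (0.89) and MAP3K13 (0.89). STIM1 was nearest to PAM, LGMN and GDE1 (each 0.93). MCU was nearest to PUDP (0.96), to CALM3, the calmodulin gene described above (0.94), and to C20orf27 (0.94).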

How the data were processed

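RNA of WI-38 cells was sequenced in 52 libraries, 2 in each of 26 groups, which were taken from the sample labels. Per the labels the authors used Trim Galore, HISAT2, HTSeq, featureCounts and a program for differential expression with GRCh38 (hg38), and versions are not given in the sources used here. The 52 deposited files hold 25 distinct tables, each of 1 treatment day or RS against the untreated cells. In each, the authors deposited per gene a mean normalized count (a signal over the 4 libraries compared), a log2 fold change, the standard error of that change, and a p-value. The deposited ratio of fold change to error (a score) and the deposited adjusted p-values were not used. These columns are the deposited comparisons themselves. They are used because the tables hold nothing else, and they were not compared with any published value. Both untreated files and both RS files hold the RS table. In 23 tables, 1 malformed row that names no gene was left out. Other columns of per-sample values numbered 0.

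Levels were put on the scale of the RS table through 8645 genes whose mean exceeded 200 in all tables. Genes with a mean level of at least 10 over the 26 groups (15479 of 59408) were tested, and the deposited p-values of the Wald test were adjusted by Benjamini-Hochberg over them, with calls at an adjusted p under 0.05. Differences between treated groups were divided by the square root of the sum of both squared errors (two-sided normal p). A mean normalized count is a sum of whole reads times a fixed weight for each library. The whole reads of each library could therefore be solved for 15295 tested genes (98.81%) and 99.91% of their values. A further 38 genes were left out for a table with no solution. The members were exempt from that step, and among those tested only ATP2A2 lacked reads, those of DXR day 0. The solved reads could not be tied to replicate numbers, so the libraries are named by depth. limma 3.58.1 (R 4.3.3) was fitted to log2 of the scaled reads plus 0.5 with weights by mean, over all 26 groups. This test and the reads were added after the data were seen, since the design had expected no values per library.

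The members, the 11 pathway lists and the marker lists were chosen with earlier results of these data known. All members are named. Of each list the 2 genes with the largest change among those called at a mean of at least 100 were eligible to be named in each comparison. Exon lengths and positions came from GENCODE v29, whose build matches the labels. Promoters came from RefSeq (GRCh38.p14), which held windows for 8 of 10 members, 19 in all. Intervals are at 95% and cover counting error and the fitted spread of 2 libraries. The study's methods call the 2 samples of a group independent, and nothing says that they came from separate cell stocks, so the p-values measure the spread between these samples, which may be technical. The estimated depth was 15.4 M to 58.0 M reads assigned to genes. Alternatives were other filters, scalings, minimum sizes of change, the error of the treated groups alone, and leaving out each library. Calculations ran in Python 3.11.15 (SciPy 1.17.1, pandas 2.3.3, NumPy 2.4.6), and figures were drawn with matplotlib 3.10.9.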

Additional observations from a re-analysis of the deposited data

Results flagged for a closer look

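Differences between groups under the same comparison with untreated cells were marked where the test of the difference itself passed. Values are log2 differences, the first group minus the second, and each pair shares the untreated libraries.

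On day 0, SDS minus KCl was 2.00 for RCAN1, 1.45 for ATP2B1, 0.80 for ITPR3, 0.38 for ATP2A2 and -0.62 for ATP2B4. SDS minus DXR was 2.61 for RCAN1, 1.75 for ATP2B1 and -1.32 for ATP2B4. KCl minus DXR was 0.61 for RCAN1, -0.30 for ATP2A2, -0.70 for ATP2B4 and -0.77 for ITPR3. RCAN1 and ATP2B1 were thus higher, and ATP2B4 lower, after SDS than after either other agent.

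On day 1, SDS minus KCl was 1.37 for ITPR3, 0.34 for ATP2B4 and -0.48 for RCAN1, and the last of these was not called by limma (adjusted p = 0.0587). SDS minus DXR was 1.75 for ITPR3, 0.49 for ATP2B1 and 0.43 for ATP2B4, and KCl minus DXR was 0.47 for ATP2B1. On day 2, SDS minus KCl was 0.39 for ATP2B4, and SDS minus DXR was 0.46 for ATP2B4 and 0.82 for ITPR3. On day 3, SDS minus DXR was 0.47 for ATP2B4. On day 8, SDS minus KCl was 0.52 for ATP2B4 and 0.54 for RCAN1, and KCl minus DXR was 0.48 for ATP2B1, -0.35 for ATP2B4 and -0.69 for RCAN1. On day 16, SDS minus KCl was -1.03 for ATP2B1, SDS minus DXR was 1.04 for ITPR3, and KCl minus DXR was 0.95 for ATP2B1 and 1.72 for ITPR3.

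From day 0 to day 1 after SDS the change was -2.71 for RCAN1, -1.66 for ITPR1, -1.38 for ATP2B1, -0.49 for ATP2A2, 0.76 for MCU, 1.16 for ITPR3 and 1.52 for ATP2B4. After KCl it was -1.17 for ITPR1, 0.56 for ATP2B4 and 0.59 for ITPR3. From day 1 to day 16 the change after SDS was -2.51 for ITPR3, -1.16 for ATP2B1, 0.71 for RCAN1 and 1.79 for ITPR1. After KCl it was 0.31 for ATP2B4, 0.48 for RCAN1 and 0.96 for ITPR1, and after DXR -1.80 for ITPR3, -0.59 for ATP2B1, 0.62 for STIM1, 1.17 for RCAN1 and 1.77 for ITPR1. ITPR1 rose and RCAN1 rose between these days in all 3 arms. KCl day 16 minus RS was 0.76 for ATP2B1 and 1.35 for ITPR3.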

How the results depend on the processing

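The counts of members called against untreated cells (39 of 72 after SDS, 27 of 72 after KCl, 41 of 72 after DXR, 5 of 9 in RS) stayed within 1.5 times under a mean level of at least 100, no filter, scaling by the summed level and centring on the median. When a change of 0.5 or more on the log2 scale was required as well, the counts were 23 after SDS, 14 after KCl and 24 after DXR, and at 1 or more they were 7, 4, 6 and, in RS, 3. limma on the reads of each library called 37, 26 and 38, and 8 in RS. In RS it called 7028 of 15295 genes, where the Wald test called 3447 of 15479, so its higher count there is not particular to the members. Among single comparisons of the members limma lost 14 calls, 8 of them of RCAN1, gained 11 and turned the direction of none. With 1 library left out in limma, the counts ran from 25 to 38 after SDS, 12 to 25 after KCl, 24 to 38 after DXR and 6 to 8 in RS. The lowest counts came without the larger untreated library (25, 12 and 24), and without the smaller one they were 26, 16 and 30. No called comparison changed sign, while some that were not called did. Leaving out a treated library leaves 1 in its group, which is then assumed to vary like the other groups. Differences between inducers numbered 32 of 216 and became 57 with the error of the treated groups alone, 20 with a difference of at least 0.5 in size and 52 in limma. For SDS and KCl on day 0, limma called 9833 of 15241 genes, beside 5712 of 15479 with the summed error. Differences between days (22 of 54) stayed within 1.5 times under each alternative run. Differences of day 16 from RS numbered 2 of 27, 6 with the error of the treated groups alone and 11 in limma. For KCl day 16 and RS, limma called 4887 of 15295 genes, beside 628 of 15479 with the summed error. The summed error counts the untreated libraries more than once. The causes of the other changes were not tested.

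No paired analysis was possible because the values recovered for each library carry no replicate number. The estimated depth of the untreated libraries, 18.8 M and 15.4 M reads, enters every comparison and limits the precision of each. At 13 reads in all, ORAI1 could not be compared between groups.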
